A study of Mus musculus with 50 samples.

Results

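The data described here are the array probes of 10 mouse genes, Ncoa1, Oscp1, Rita1, Mthfsd, Luc7l, Asic5, Gucy1b2, Tcp10a, Cdh6 and Impg2. They are 10 of the 15318 genes measured by a probe of their own, and were chosen by the measured 3 h values, because 1 probe of each was far higher in the spleen of BALB/c mice 3 h after CpG oligodeoxynucleotides (ODN), with little difference in C57BL/6 mice. Every probe carrying the symbol of a member, and no other symbol, was taken. That gave 20 probes out of the 36607 in the table, of which 30750 had values. The probe of each gene with the largest BALB/c difference at 3 h is called its leading probe, so there are 10 leading probes and 10 others. Asic5, Gucy1b2, Cdh6 and Impg2 have 1 probe each and the other 6 genes have several. A further 2 probes that name Tcp10a together with a second gene symbol or gene identifier were not counted.

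Spleens of female mice were measured on 50 two-colour arrays, 1 per sample, in 12 groups. Spleen RNA carried Cy5 and was set against Universal Mouse Reference RNA in Cy3, a pool that includes lymphocytes, macrophages, liver, kidney, embryo and testis. Each value is therefore a log2 ratio of spleen over reference, and a difference of 1 between groups is a 2-fold ratio. BALB/c mice, wild type per the titles, were untreated (n = 6) or were killed 0.5, 1, 3, 9, 24 or 72 h after 400 µg of a CpG ODN mixture given intraperitoneally (n = 4 at each time), or 3 h after a control ODN mixture (n = 4). C57BL/6 control mice and C57BL/6 mice with a knocked-out TNF gene (TNF-KO) were untreated or were taken 3 h after CpG ODN (n = 4 in each of these 4 groups). The dose is given in the text for the series as a whole, and no age is used here. The study text speaks of 4 independent experiments per time point, and beyond that the p-values measure the spread between these samples.

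The C57BL/6 arrays with CpG in their titles, from control and TNF-KO mice alike, are called untreated in a second label field, and the titles were followed. On these arrays the mean of 10 measured interferon-stimulated genes lay between 3.45 and 4.07 in C57BL/6 control and between 3.58 and 4.37 in TNF-KO spleens. The untreated arrays of the same genotypes reached at most 2.03 and 0.95. Genes of B cells, T cells, red pulp macrophages and erythroid cells were above the reference in every group, with group medians of 2.52 to 3.48 for B cells and 4.09 to 5.72 for erythroid cells. An array held between 27619 and 30590 values, and 14 of the 20 probes had a value on every array. Whole spleen was used, so more cells of a type and more RNA per cell cannot be told apart.

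CpG ODN mimic bacterial DNA and bind TLR9 in the endosomes of dendritic cells and B cells, from where MyD88 relays the signal to NF-kB and to interferon regulatory factors. None of the 10 genes belongs to that textbook pathway, and they share no family. Nuclear regulators are represented by Ncoa1 (SRC-1), a coactivator of nuclear receptors, by Rita1, which binds the Notch effector RBPJ and carries it out of the nucleus, and by Luc7l, a splicing factor that associates with the U1 small nuclear ribonucleoprotein. Mthfsd carries a domain related to a folate enzyme next to an RNA-binding domain. At the membrane and in signalling, Asic5 is a bile acid-sensitive channel of the acid-sensing channel family, Gucy1b2 is a beta subunit of the nitric oxide receptor guanylate cyclase, Cdh6 is a type II cadherin of the developing kidney and brain, and Oscp1 is associated with organic solute transport. Impg2 is a proteoglycan of the matrix around photoreceptors, and Tcp10a is a t-complex gene of male germ cells.

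The 9 members found in the reference gene table lie on 9 different chromosomes, namely 12 (Ncoa1), 4 (Oscp1), 5 (Rita1), 8 (Mthfsd), 17 (Luc7l), 3 (Asic5), 14 (Gucy1b2), 15 (Cdh6) and 16 (Impg2). The gene identifier of the Tcp10a probes was not matched, so Tcp10a keeps the platform's name. Because the leading probes shared a time course, the 250 bases before the annotated start were searched in the 8 members with a RefSeq entry (assembly GRCm38.p6) for motifs of factors that act downstream of TLR9, on both strands. The window of Asic5, chr3:81996672-81996921 (plus strand), held an interferon-response-like motif (GAAA, any 2 bases, GAAA) from -245 to -236 in its reverse form, and that of Impg2, chr16:56204063-56204312 (plus strand), held the AP-1 motif TGACTCA from -159 to -153, also in reverse. They are shown with the match in capitals.
Asic5: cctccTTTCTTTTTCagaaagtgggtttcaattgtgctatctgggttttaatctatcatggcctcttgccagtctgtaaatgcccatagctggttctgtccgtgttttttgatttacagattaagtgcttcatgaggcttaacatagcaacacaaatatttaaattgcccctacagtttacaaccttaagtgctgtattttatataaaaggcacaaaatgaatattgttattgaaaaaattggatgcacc
Impg2: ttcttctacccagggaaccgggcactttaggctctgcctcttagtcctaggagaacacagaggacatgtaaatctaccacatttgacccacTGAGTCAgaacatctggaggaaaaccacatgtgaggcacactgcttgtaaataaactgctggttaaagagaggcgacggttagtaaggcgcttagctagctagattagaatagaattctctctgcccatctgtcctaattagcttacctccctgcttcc
No other match to these motifs, to the NF-kB motif (GGGA, any base, TTTCC) or to the GAS motif TTCNNNGAA was found in the 8 windows. Of 32851 windows of the same length, 2.98% held the interferon-response-like motif, 4.46% TGACTCA, 0.356% the NF-kB motif and 7.02% TTCNNNGAA. A match describes the letters only. The windows of Oscp1, chr4:126058315-126058564 (plus strand), and Rita1, chr5:120612590-120612839 (minus strand), are shown because these 2 leading probes followed each other most closely between arrays.
Oscp1: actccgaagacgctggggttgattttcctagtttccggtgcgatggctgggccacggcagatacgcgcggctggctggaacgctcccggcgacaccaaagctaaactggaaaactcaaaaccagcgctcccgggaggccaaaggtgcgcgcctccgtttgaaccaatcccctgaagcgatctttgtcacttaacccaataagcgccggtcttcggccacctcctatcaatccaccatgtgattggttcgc
Rita1: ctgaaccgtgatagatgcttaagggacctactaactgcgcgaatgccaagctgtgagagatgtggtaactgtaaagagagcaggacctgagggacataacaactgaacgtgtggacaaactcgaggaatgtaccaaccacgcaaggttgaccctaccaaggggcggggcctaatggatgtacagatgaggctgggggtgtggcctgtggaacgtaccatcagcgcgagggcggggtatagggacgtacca
The sequences of the array probes themselves were not used here, so which exon a probe reads is not given.

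The 3 h values in BALB/c chose the members and are given as a description. For Ncoa1 the untreated log2 ratios ran from -1.98 through a median of -1.74 to -1.52, and the 4 CpG arrays read 1.90, 1.78, 2.49 and 2.54. Rita1 read -1.62, -1.37 and -1.19 at its untreated lowest, median and highest, against 2.09, 1.80, 2.53 and 2.49 after CpG. Both nuclear regulators went from well below the reference pool to well above it on every array. Luc7l had the smallest difference of the 10 leading probes, with untreated values of -1.82 to -0.89 around a median of -1.23 and CpG values of 0.98, 1.06, 1.78 and 1.81. Mthfsd, the folate domain gene, ran from -1.94 to -1.18 untreated (median -1.51) and read 1.81, 1.55, 2.18 and 2.27 after CpG.

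Among the membrane and signalling members, Asic5 was the least even. Its untreated arrays lay between -2.07 and -0.91 (median -1.77) and its CpG arrays at 0.60, 1.82, 2.55 and 2.50. Gucy1b2 was tighter, from -1.65 to -0.83 untreated (median -1.32) to 1.62, 1.64, 2.24 and 2.34. Cdh6 started at -2.23 to -1.37 (median -1.82) and reached 1.54, 2.04, 2.71 and 2.36. In each of these the lowest CpG array was still above the highest untreated one.

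Oscp1, Impg2 and Tcp10a followed the same course. Oscp1 read -2.11 to -1.09 untreated (median -1.63) and 2.26, 1.73, 2.53 and 2.68 after CpG. Impg2, of the retina, ran from -2.0 to -1.41 (median -1.70) and then stood at 2.29, 2.01, 2.68 and 2.43. Tcp10a, of male germ cells, had untreated arrays from -1.60 to -0.38 (median -1.25) and CpG arrays at 1.07, 1.5, 2.59 and 2.31. Other genes typical of photoreceptors and of male germ cells did not share this size of difference. The mean of 5 measured photoreceptor genes lay between -0.61 and -0.09 untreated and between -0.45 and -0.15 at 3 h. That of 7 measured male germ cell genes lay between -0.60 and -0.29 and between -0.49 and -0.11.

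**Figure D1:**
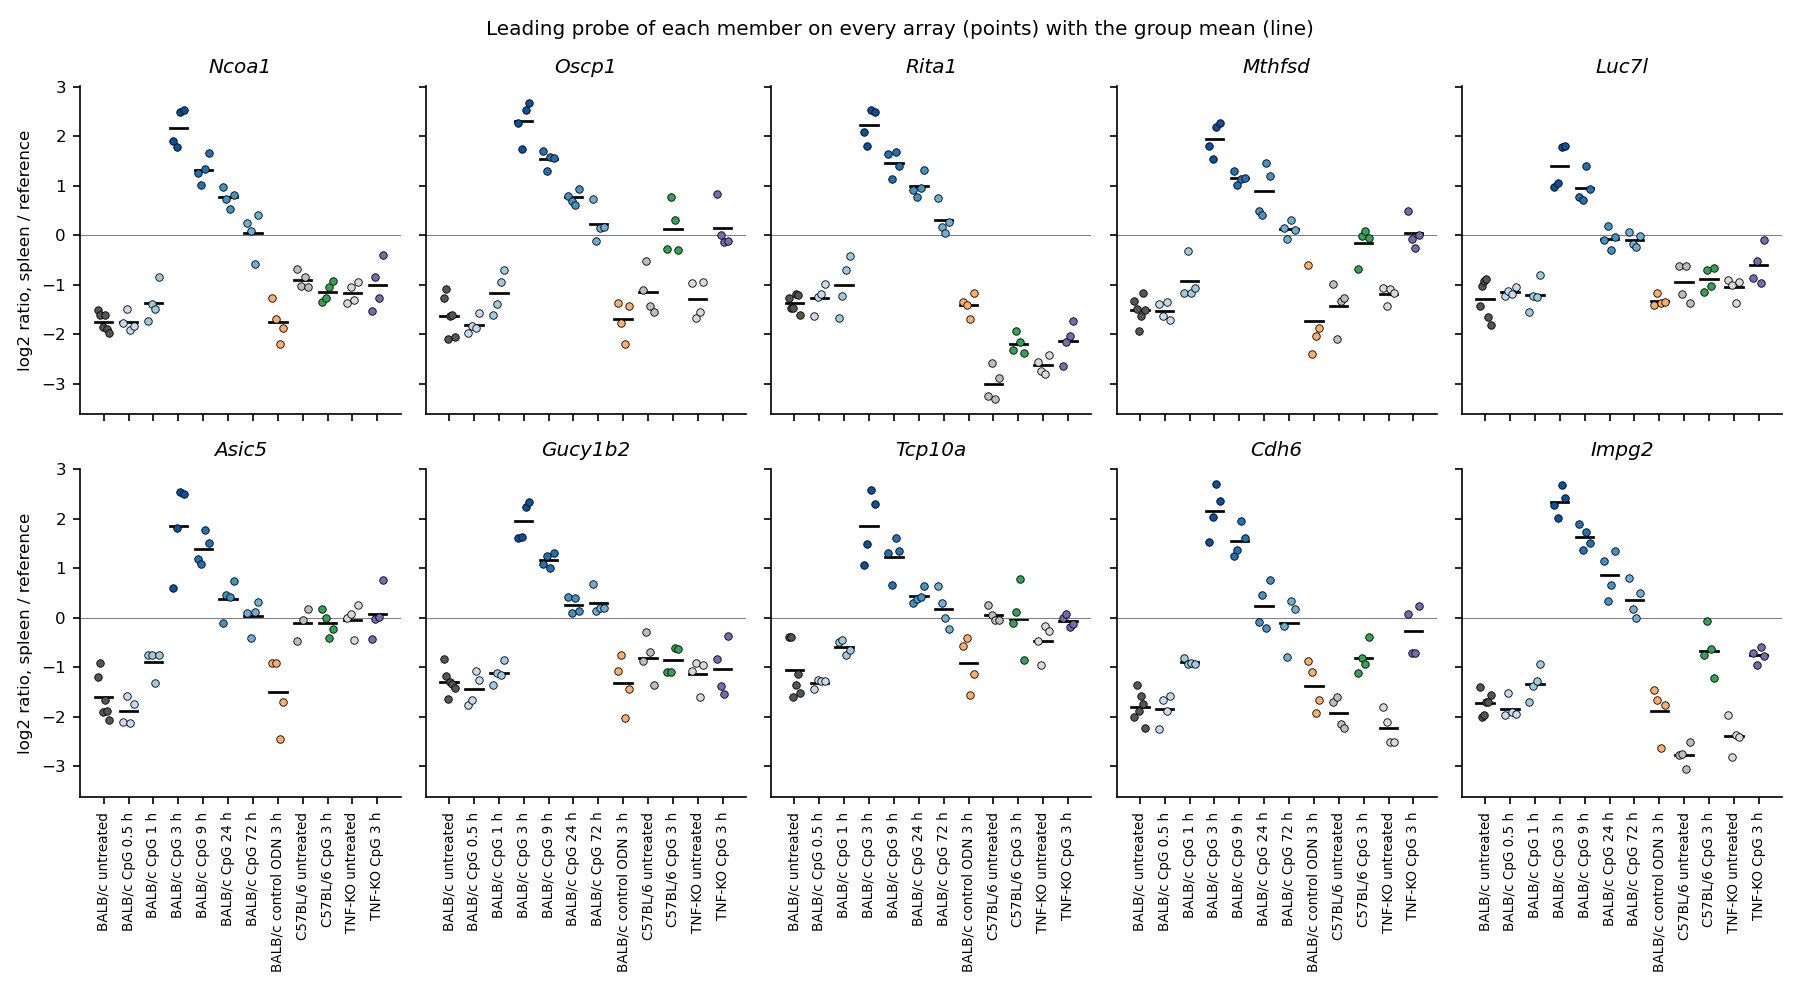
The log2 ratio of spleen over reference (y axis) of the leading probe of each of the 10 members on every array, in 12 groups (x axis); points are arrays and lines are group means. BALB/c arrays at 3 h after CpG lie above all untreated BALB/c arrays for each gene, while the C57BL/6 groups start at different levels. The BALB/c means fall through 9, 24 and 72 h for each gene but Gucy1b2, whose 72 h mean is above its 24 h mean.

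As fitted differences, CpG at 3 h minus untreated, the 10 leading probes ran from 2.70 (SE 0.19) for Luc7l to 4.07 (SE 0.21) for Impg2, with a median of 3.53 against -0.02 over all probes. Cdh6 stood at 3.97 (SE 0.24), Oscp1 at 3.93 (SE 0.21), Ncoa1 at 3.92 (SE 0.20) and Rita1 at 3.60 (SE 0.20). Between them and Luc7l came Mthfsd at 3.47 (SE 0.24), Asic5 at 3.47 (SE 0.30), Gucy1b2 at 3.25 (SE 0.20) and Tcp10a at 2.93 (SE 0.27). The CpG arrays were all above the untreated ones in 10 of 10, where 6.6% of all probes showed this. Over the series 102 probes were higher by at least the Luc7l value, and 99 of them were also fitted in C57BL/6 mice. Only 24 of these 99 had under 50% of their BALB/c difference in C57BL/6 control mice, and 9 of the 24 were leading probes. The median C57BL/6 control difference of the 99 was 2.35.

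Set against the control ODN arrays, the 3 h values of the leading probes gave differences from 2.73 for Luc7l to 4.23 for Impg2 and a median of 3.59.

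Whether the difference was limited to a single probe could be checked in the 6 genes with several probes, and it was in 5 of them. Luc7l went against it, since a second probe of it was also higher at 3 h, by 2.42 (SE 0.21), next to 2.70 for its leading probe. The remaining probes of the members did not follow. The other Ncoa1 probe differed by -0.13 (SE 0.13), that of Oscp1 by 0.02 (SE 0.17) and that of Rita1 by -0.17 (SE 0.15). For Mthfsd the other probes stood at 0.19 (SE 0.15) and 0.04 (SE 0.16), and for Tcp10a at 0.05 (SE 0.18) and -0.04 (SE 0.22). Luc7l also had 2 such probes, at 0.02 (SE 0.28) and -0.03 (SE 0.22). For all 6 genes with several probes, at least 1 probe with a 3 h difference under 1 carried the same transcript accession in the platform table as the leading probe. The Tcp10a probes with a second symbol or identifier stood at 0.21 and 0.18.

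**Figure D2:**
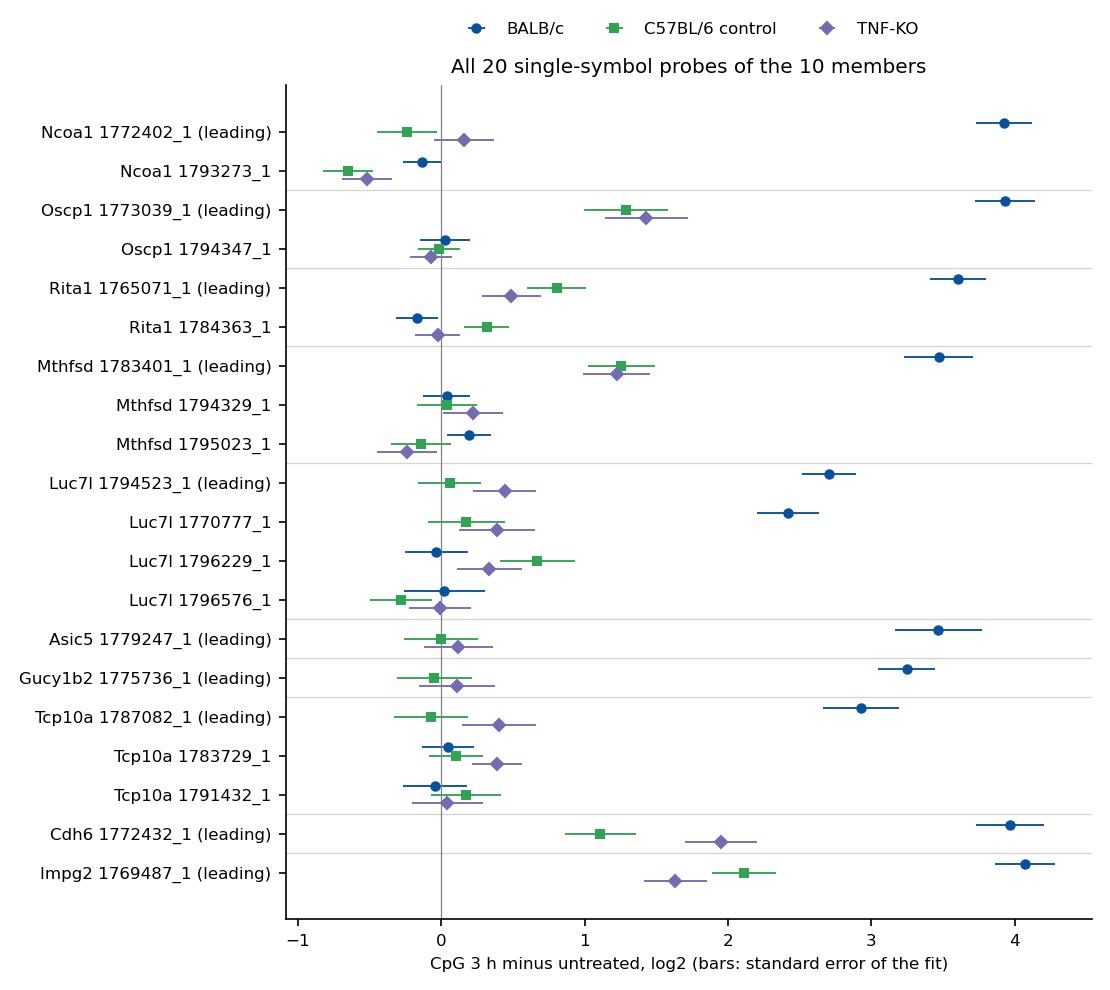
Difference between CpG at 3 h and untreated spleen in log2 units (x axis) for all 20 probes (y axis) in BALB/c, C57BL/6 control and TNF-KO mice, with bars for the standard error of the fit. In BALB/c the leading probes and the second Luc7l probe lie at 2.42 or above while the other 9 probes lie between -0.17 and 0.19.

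In C57BL/6 mice the 10 leading probes split, and the description as seen only in BALB/c did not hold for 5 of them. These contrasts also chose the members and carry no test. Impg2 read -2.78, -2.75, -3.06 and -2.51 in untreated C57BL/6 control spleen and -0.74, -0.07, -0.63 and -1.21 after CpG, a difference of 2.11 (SE 0.22), or 51.8% of the BALB/c difference on the log2 scale. Oscp1 went from -1.12, -0.52, -1.44 and -1.56 to -0.27, 0.78, 0.31 and -0.30, a difference of 1.29 (SE 0.29). The CpG arrays of both genes lay wholly above the untreated ones. Mthfsd, with -0.99, -2.11, -1.32 and -1.28 untreated and -0.68, -0.01, 0.08 and -0.05 after CpG, differed by 1.26 (SE 0.23). Cdh6 went from -1.70, -1.60, -2.15 and -2.23 to -1.11, -0.81, -0.94 and -0.40, a difference of 1.11 (SE 0.25). Rita1, the lowest of the members in this strain, went from -3.25, -2.59, -3.32 and -2.88 to -2.33, -1.95, -2.16 and -2.39, a difference of 0.81 (SE 0.20). All CpG arrays lay above all untreated arrays for these 5 genes, and for 7.87% of all probes.

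The leading probes of the other 5 members gave values near 0. Asic5 differed by 0.00 (SE 0.26), with 3 untreated arrays at -0.47, -0.04 and 0.18 and CpG arrays at 0.17, 0.00, -0.40 and -0.23. Luc7l stood at 0.06 (SE 0.22), its second probe at 0.17 (SE 0.27), Gucy1b2 at -0.05 (SE 0.26) and Tcp10a at -0.07 (SE 0.26). Ncoa1 stood at -0.24 (SE 0.21), from -0.69, -1.02, -0.86 and -1.05 untreated to -1.35, -1.26, -1.05 and -0.92. For these 5 leading probes the untreated and CpG arrays overlapped. The 10 other member probes differed by -0.65 to 0.67 in this strain, with a median of 0.07. Lowest was the other Ncoa1 probe, at -0.65 (SE 0.18), with arrays of 0.07 to 0.25 untreated and -0.68 to -0.40 after CpG. Highest was a Luc7l probe that did not follow in BALB/c, with means of -1.15 untreated and -0.48 after CpG (n = 3 each). In this strain the interferon-stimulated genes were about as high after CpG, with a median over arrays of 3.74, as in BALB/c at 3 h, with a median of 3.85. Their untreated medians were 1.71 in C57BL/6 control and 0.86 in BALB/c mice, so their difference from untreated was smaller in C57BL/6.

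Mice without TNF gave a like split. Differences in TNF-KO spleen were 1.95 (SE 0.25) for Cdh6, 1.63 (SE 0.22) for Impg2, 1.43 (SE 0.29) for Oscp1 and 1.22 (SE 0.23) for Mthfsd, with no overlap of arrays, against 4.99% of all probes. The remaining 6 lay between 0.11 (Gucy1b2) and 0.49 (Rita1). Tested directly, TNF-KO and C57BL/6 control spleens differed at no member probe. After CpG, 0 of 20 probes passed (limma, adjusted p under 0.05) and 1 had an unadjusted p under 0.05, with 0.168% of all probes called. In untreated mice 0 passed and 0 had an unadjusted p under 0.05, with 0.312% called. The largest difference between the CpG groups was 0.54 (SE 0.25, limma adjusted p = 0.425) at Cdh6. Its CpG arrays, at -1.11 to -0.40 in control and -0.71 to 0.24 in TNF-KO mice, overlapped. The runs of array numbers that held both CpG groups differed. In 1 run the leading probes had a median TNF-KO minus control difference of -0.15, with 2 of 10 above 0. In another it was 0.54, with 10 of 10 above 0.

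Before treatment 5 of the 10 leading probes did not overlap between the strains. Rita1 and Impg2 had higher ratios in every untreated BALB/c array than in any untreated C57BL/6 control array, with means of -1.37 against -3.01 and -1.72 against -2.78. Ncoa1, Asic5 and Tcp10a were the other way round, with means of -1.75 against -0.90 for Ncoa1, -1.60 against -0.11 for Asic5 and -1.06 against 0.06 for Tcp10a. The other 5 overlapped. Over all probes, 5.87% were higher in every BALB/c array and 7.88% in every C57BL/6 control array. The strains were not measured in the same runs of arrays, so strain and run cannot be told apart. After CpG every BALB/c array at 3 h was above every C57BL/6 control CpG array for all 10, where 9.52% of all probes showed this, with differences of means from 1.88 (Tcp10a) to 4.44 (Rita1). The arrays of both CpG groups chose the members, so this count is only a description.

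Later times in BALB/c were not used to choose the members, although they share the untreated arrays with the contrast that was. All 10 leading probes rose at 9 h, at 24 h and at 72 h. Impg2 read 1.90, 1.38, 1.74 and 1.51 on the 9 h arrays, 1.16, 0.34, 0.67 and 1.34 at 24 h and 0.81, 0.18, -0.01 and 0.51 at 72 h. Ncoa1 read 1.27, 1.02, 1.35 and 1.66, then 0.98, 0.73, 0.54 and 0.81, then 0.25, 0.09, -0.59 and 0.41. Luc7l was lower throughout, at 0.77, 0.71, 1.41 and 0.93, then -0.10, 0.18, -0.31 and -0.05, then 0.06, -0.18, -0.24 and -0.01. Even at 72 h each of these arrays stood above the highest untreated array of its gene, as the 72 h arrays of all 10 leading probes did, against 6.08% of all probes. At 9 and 24 h all 10 leading probes were likewise free of overlap with untreated, where 3.95% and 5.08% of all probes were. At 9 h the median difference was 2.91 (2.25 to 3.35) and 11 of 20 member probes were higher, with 3.29% of all probes called higher. The largest was Impg2, at 3.35 (SE 0.21, limma adjusted p = 3.76e-13), and the smallest Luc7l, at 2.25 (SE 0.19, limma adjusted p = 1.37e-10). The remaining call was the second Luc7l probe, at 1.44 (SE 0.21, limma adjusted p = 1.73e-05).

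At 24 h the median was 2.20 (1.23 to 2.60), 11 of 20 were higher, and 5.14% of all probes were called higher. Impg2 at 2.60 (SE 0.21), Ncoa1 at 2.51 (SE 0.20) and Mthfsd at 2.41 (SE 0.24) led, and Luc7l was lowest at 1.23 (SE 0.19). All limma adjusted p-values of the leading probes were at or below 0.000319, that of Tcp10a. At 72 h the median was 1.66 (1.20 to 2.09), with 11 of 20 higher, against 4.91% of all probes. Tcp10a had the weakest p (1.24, SE 0.27, limma adjusted p = 0.00366). The other Ncoa1 probe was the 1 of 20 called lower at 72 h, where 3.79% of all probes were. It fell by 0.48 (SE 0.13, limma adjusted p = 0.021), while the leading probe of the gene rose by 1.79 (SE 0.20).

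**Figure D3:**
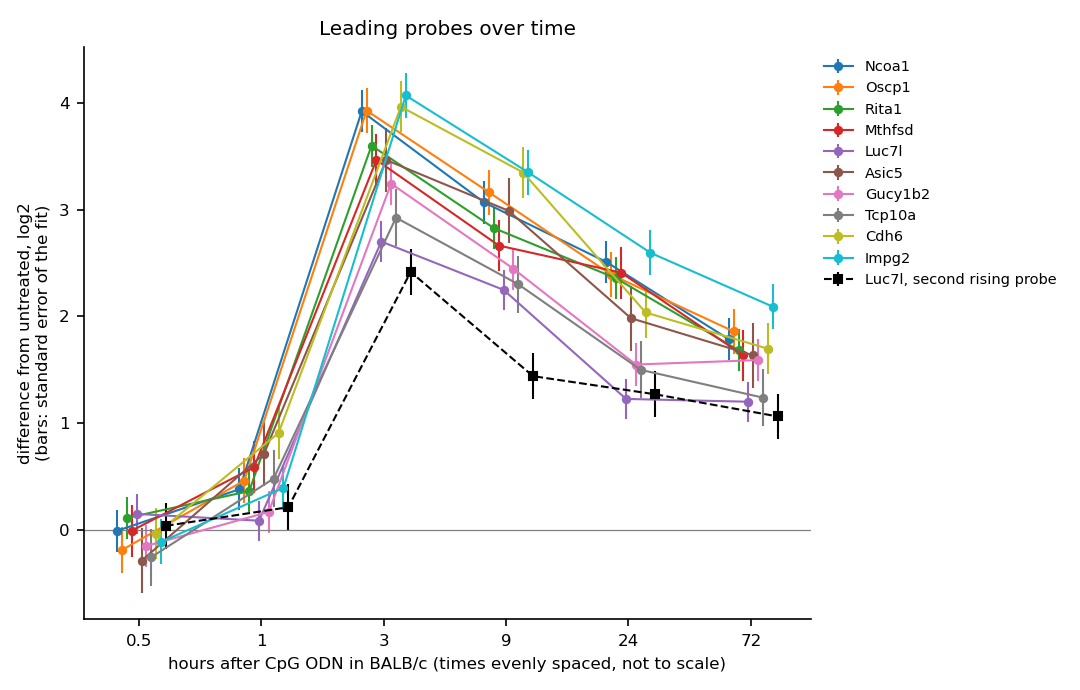
Difference from untreated BALB/c spleen in log2 units (y axis) at 6 times after CpG ODN (x axis, evenly spaced and not to scale) for the 10 leading probes and the second Luc7l probe, with the standard error of the fit. The leading probes stand between -0.29 and 0.15 at 0.5 h, peak between 2.70 and 4.07 at 3 h and remain between 1.20 and 2.09 at 72 h.

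The later times were also set against the control ODN arrays, which share no run with the 9 and 24 h arrays. With the control ODN arrays in place of the untreated ones, 12, 11 and 12 member probes were called at 9, 24 and 72 h (limma, adjusted p under 0.05, either direction), where 11.7%, 7.86% and 11.3% of all probes were called. Impg2 was at 3.51, 2.76 and 2.25. The arrays of 72 h were all above those of the control ODN for 10 of 10 leading probes, and for 6.16% of all probes. No untreated array was made in the runs of array numbers that hold 9, 24 and 72 h, and the 3 h arrays link the run of the 9 h arrays and of 24 h replicates 2 to 4 to those of the untreated arrays. With the run as a fixed block, which can be fitted for 9 and 24 h, 11 member probes were called at each. That fit rests on the linking 3 h arrays, which chose the members, so it is no independent check. For 72 h no such fit was possible, and the run of the 72 h arrays also holds the control ODN arrays, so the comparison with control ODN above lies within that run.

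After 3 h the leading probes fell back, and whether their rates differed between genes was not tested. The 9 h arrays share a run with 3 h replicates 1 and 2 only. In these 2 replicates the mean of the leading probes was 1.62 and 1.69, against a mean of 1.34 at 9 h. Replicates 3 and 4, at 2.43 and 2.37, were in another run, so time and run are mixed in the step from 3 to 9 h. As a share of its own 3 h log2 difference, the value that chose it, a leading probe kept 75.4% (Gucy1b2) to 86.3% (Asic5) at 9 h, with a median of 79.5%. At 24 h the share was 45.4% (Luc7l) to 69.5% (Mthfsd) and at 72 h 42.3% (Tcp10a) to 51.4% (Impg2), with medians of 59.0% and 46.9%. Between 24 and 72 h the share of Mthfsd went from 69.5% to 47.1%, while that of Luc7l went from 45.4% to 44.4% and that of Gucy1b2 from 47.8% to 49.0%. In the order of group means, 3 h was first and 9 h next for all 10, and 24 h came after them for 9. Gucy1b2 had 72 h (0.30 ± 0.25, SD, n = 4) ahead of 24 h (0.26 ± 0.18), a difference within the spread. Neighbours in this order often overlapped. All arrays at 3 h were above all at 9 h for 6 leading probes (4.27% of all probes), all at 9 h above all at 24 h for 8 (4.12%), and all at 24 h above all at 72 h for 3, namely Ncoa1, Rita1 and Mthfsd (3.51%). The 72 h mean came next for 8 members, and for Asic5 the TNF-KO CpG mean lay between. All 4 C57BL/6 groups had means above that of untreated BALB/c for Ncoa1, Oscp1, Mthfsd, Luc7l, Asic5, Gucy1b2 and Tcp10a, and below it for Rita1.

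At the early times and with the control ODN little was called. At 0.5 h 0 of 20 member probes passed (limma, adjusted p under 0.05), 1 had an unadjusted p under 0.05, and 0.164% of all probes were called higher. At 1 h only the cadherin Cdh6 passed, with arrays at -0.80, -0.94, -0.91 and -0.93 and a difference of 0.91 (SE 0.24, limma adjusted p = 0.032), where 2.17% of all probes were called higher. The call was lost when any 1 of the 4 CpG arrays, or untreated replicate 1, 3, 5 or 6, was left out, with limma adjusted p-values of 0.052 to 0.112. Among the other leading probes the 1 h differences were 0.09 (Luc7l) to 0.71 (Asic5). In all, 6 of 20 probes had an unadjusted p under 0.05, Cdh6 among them, and of these the other probes of Mthfsd stood at -0.35 and -0.36. Of the Tcp10a probes with a second symbol or identifier, 1 was also called at 1 h, at 0.91 (SE 0.25, limma adjusted p = 0.0428). Mthfsd and Cdh6 were the members whose 1 h arrays all lay above the untreated ones, as 4.34% of all probes did.

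Control ODN left the leading probes between -0.21 (Mthfsd) and 0.42 (Cdh6) from untreated, with a median of -0.03. The run of the control ODN arrays held no untreated array, so control ODN and run cannot be told apart here. The untreated arrays also helped choose the members. None of 20 probes passed (0 by limma at an adjusted p under 0.05, and 3 at an unadjusted p under 0.05), with 0.602% of all probes called. The control ODN arrays lay above all untreated arrays for 0 of 10 leading probes and for 2.35% of all probes. Spread was wide in this group, with Mthfsd at -0.60, -2.40, -2.04 and -1.88 and Asic5 at -0.90, -0.91, -2.45 and -1.70.

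Other gene groups were read over the same hours. The mean of the 10 measured interferon-stimulated genes, of 12 listed, ran from 0.54 to 1.15 untreated, 3.63 to 4.23 at 3 h, 3.33 to 3.87 at 9 h, 2.53 to 3.09 at 24 h and 1.87 to 2.52 at 72 h. It was already 1.36 to 2.35 at 1 h, when 9 of the leading probes were not called. All 8 listed neutrophil genes were measured, and their mean ran from 1.63 to 2.60 untreated and 1.97 to 3.78 with control ODN. It was 3.15 to 3.94 at 1 h, 2.79 to 3.24 at 3 h, 3.17 to 3.74 at 9 h, 2.31 to 3.27 at 24 h and 1.95 to 3.32 at 72 h. The genes differed. From untreated to 3 h Mmp8 went from 1.6 to 4.8 and Lcn2 from -0.3 to 2.3. S100a8 and S100a9 were also higher, Ngp and Camp were about level, and Ltf (1.7 to 1.2) and Mmp9 (-0.1 to -0.4) were lower. Genes of the exocrine pancreas, an organ next to the spleen, ran from 0.38 to 5.47 untreated and from 0.19 to 5.45 at 3 h. The part of these cells in the values of the members was not tested.

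Within the BALB/c 3 h group replicates 3 and 4 were above replicates 1 and 2 for 10 of 10 leading probes, on the arrays that chose them, and for 16.8% of all probes. The mean of the leading probes was 1.62, 1.69, 2.43 and 2.37 in replicates 1 to 4. Replicates 3 and 4 fall in a run of adjacent array numbers with untreated replicate 2, and replicates 1 and 2 in a run with the 9 h arrays. Within the run of replicates 3 and 4 the 3 h difference was 2.83 to 4.55, with a median of 3.71, against the single untreated array there. In the runs that hold 1 h and untreated arrays the 1 h medians were 0.22 and 0.32.

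How far the members followed each other beyond their group means was read on the 24 BALB/c arrays of the 6 groups outside untreated and CpG 3 h. After each group's mean was removed, 44 of the 45 pairs of leading probes had a Pearson r above 0, with a median of 0.375 and a median Spearman rho of 0.33. In 12 pairs r was above 0.5. Oscp1 and Rita1 were closest (r = 0.877), followed by Asic5 with Cdh6 (r = 0.803). Impg2 followed Oscp1 (r = 0.744), Ncoa1 (r = 0.714) and Rita1 (r = 0.703). The lowest pair was Mthfsd with Luc7l, at -0.286. Leading against other member probes gave a median of 0.0529 over 100 pairs, and the 2 rising Luc7l probes had an r of 0.00279. Arrays share depth and run, which were not removed, and these values describe the arrays without a test. No count over pairs of all probes is given beside the 44 of 45, so it is not shown to be particular to the members.

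On the 16 C57BL/6 arrays the same measure gave a median r of 0.164, with 30 of 45 pairs above 0 and 4 above 0.5. The closest pair there was Ncoa1 with Luc7l (r = 0.739). Oscp1 and Rita1, the closest pair in BALB/c, had an r of 0.195.

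**Figure D4:**
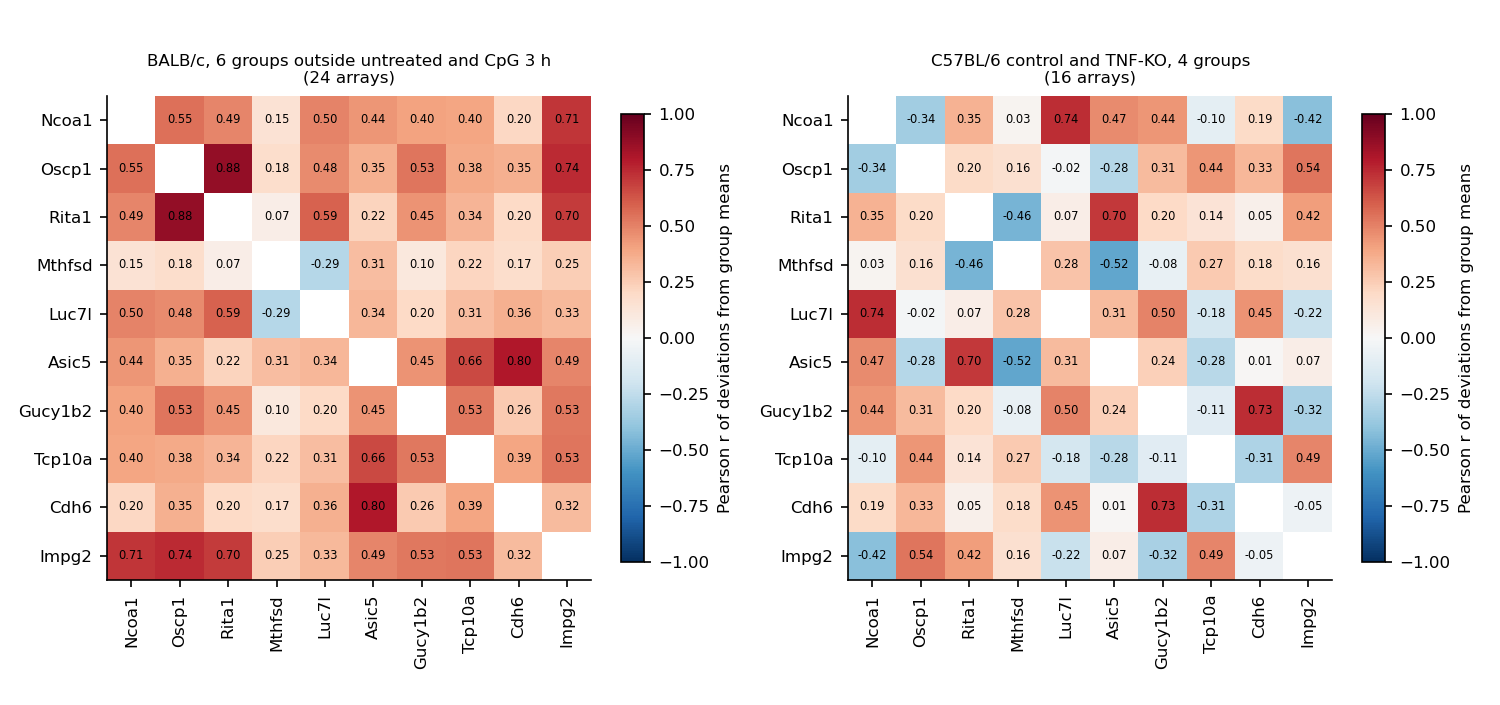
Pearson r between leading probes of deviations from group means, for each pair of the 10 members (both axes), on 24 BALB/c arrays (left) and 16 C57BL/6 arrays (right); red is positive and blue negative. The BALB/c panel is positive in all pairs but Mthfsd with Luc7l (-0.286), and the C57BL/6 panel is mixed.

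Genes outside the set had like profiles. Over all 50 arrays, where the group differences that chose the members dominate, the probe of 6530409C15Rik had the highest r with Oscp1 (0.964), Cdh6 (0.949) and Impg2 (0.969). It stood at 3.75 in BALB/c and 1.47 in C57BL/6 control mice at 3 h, so it shared the lesser C57BL/6 difference of these 3 genes. Ncoa1 was most like Gucy1b2 (0.957), then Slc52a3 (0.955), a riboflavin transporter, and Luc7l (0.953). Gucy1b2 in turn was next to Csrp3 (0.947), a muscle LIM protein, and Svil (0.940), the actin-binding supervillin, which stood at 3.25 and 3.22 in BALB/c and at -0.48 and -0.18 in C57BL/6 control. Rita1 was nearest to Czib (0.946, 49 arrays), Actrt3 (0.940, 47 arrays) and Asph (0.933). Asic5 and Tcp10a were each other's nearest (0.921, 49 arrays), and Hils1 (0.898, 49 arrays), a spermatid histone, came next for Asic5. Between 1 (Asic5) and 13 (Oscp1 and Impg2) probes had an r above 0.9 with a leading probe.

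The genes next to the members on the chromosome did not share the 3 h difference, with 1 exception. The nearest measured neighbours on either side of the 9 located members otherwise stood between -0.63 (Gucy1b1, beside Asic5) and 0.29 (Iqcd, beside Rita1) at 3 h in BALB/c, as a description. The exception was Dusp1, a phosphatase of MAP kinases beside Luc7l, at 2.07 in BALB/c and 1.43 in C57BL/6 control mice. Luc7l itself had 2.70 and 0.06.

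Relatives and partners of the members were taken from 9 lists, without the members, and 73 probes of 46 genes were measured. No relative of Tcp10a or Impg2 was among them. At 3 h in BALB/c 2 of the 73 were higher and 7 lower, at 9 h 2 and 7, at 24 h 3 and 2, and at 72 h 3 and 9 (limma, adjusted p under 0.05). Of all probes 5.45% were higher and 2.32% lower at 3 h, 3.29% and 1.96% at 9 h, 5.14% and 1.4% at 24 h, and 4.91% and 3.79% at 72 h. The p160 relatives of Ncoa1 fell at 3 h, with Ncoa2 at -0.76 (SE 0.17, limma adjusted p = 0.0026) and Ncoa3 at -0.56 (SE 0.18, limma adjusted p = 0.0443), or 2 of 4 probes, with a list median of -0.48. Among guanylate cyclase subunits, relatives of Gucy1b2, 3 of 4 probes fell at 3 h, all of them Gucy1a1, the alpha subunit, at -1.60, -1.35 and -1.67 (limma adjusted p = 1.36e-05, 0.00147 and 0.000611).

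In the folate one-carbon list around Mthfsd 2 of 18 probes rose at 3 h, and the list median was 0.27. These were Aldh1l1, which oxidises formyltetrahydrofolate, at 1.52 (SE 0.19, limma adjusted p = 3.09e-07), and the serine hydroxymethyltransferase Shmt1 at 0.53 (SE 0.15, limma adjusted p = 0.0233). Of the 21 Notch and RBPJ probes around Rita1, 1 fell at 3 h, Nrarp, a Notch-induced inhibitor, at -0.67 (SE 0.20, limma adjusted p = 0.0294). Among 12 type II cadherin probes, Cdh7 fell at 3 h, at -0.68 (SE 0.21, limma adjusted p = 0.0341), and 2 probes of Cdh11 fell at 9 h, at -1.48 (SE 0.22) and -1.33 (SE 0.23). The median was -0.30 over 7 probes of Luc7-like genes and -0.07 over 7 probes of acid-sensing channels. In C57BL/6 control mice 3 of the 73 probes were higher, the folate genes Ftcd, Mthfd1 and Shmt1, and 1 lower, again Gucy1a1, against 3.85% and 1.97% of all probes.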

How the data were processed

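The table deposited by the authors holds 1 log2 ratio per probe and array, of spleen (Cy5) over reference (Cy3). Per the series' design text, the authors corrected background, removed flagged spots and spots with both signals under 100, and applied lowess normalization within each array. The median of each array was subtracted here. Differences were fitted with limma 3.58.1 (lmFit and eBayes, R 4.3.3) on 30544 probes of 34 BALB/c arrays and 29813 probes of 16 C57BL/6 arrays, each with values on over 70% of the arrays of its fit. P-values were adjusted over all probes by Benjamini and Hochberg, with calls at 0.05. The fit was tested on simulated data. Tables were handled with Python 3.11.15 and pandas 2.3.3.

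The members, lists and alternatives were chosen with earlier results of these data known. For the members, the contrasts that chose them (CpG at 3 h in each strain) are given with no p-value. Named outside the members are, for each leading probe, the 3 probes of 1 symbol with the highest Pearson r over at least 45 shared arrays, the nearest measured neighbours, and called relatives. Runs are stretches of array numbers with gaps of at most 10. Symbols are those of the platform annotation. The number of arrays limits the precision.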

Additional observations from a re-analysis of the deposited data

Results flagged for a closer look

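Of 119 sets of 4 to 6 arrays (1 leading probe in 1 group), 6 had 1 array far from the others, and chance gives about 1 in 20 such sets. In TNF-KO spleen after CpG, replicate 1 stood high for Oscp1, at 0.825. In BALB/c at 1 h, replicate 2 stood high for Mthfsd, at -0.322, and replicate 3 low for Asic5, at -1.31. At 72 h replicate 1 stood high for Gucy1b2, at 0.678. At 0.5 h replicate 1 stood low for Tcp10a, at -1.44, and replicate 2 high for Impg2, at -1.51.

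For Ncoa1 the 3 h difference had opposite signs in the strains, 3.92 in BALB/c and -0.24 in C57BL/6 control mice. The difference between the strains was not tested, since both contrasts chose the members.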

How the results depend on the processing

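The counts at 9 and 24 h stayed at 11 member probes, and that at 72 h at 11 or 12, when each array was left out in turn. The 1 h count of 1 was 3 with array weights and 0 with the control ODN arrays as the comparison group, and leaving out 1 array gave 0 to 1. The control ODN count of 0 was 1 with array weights, and leaving out 1 array gave 0 to 1. With the arrays scaled to the same spread, the control ODN difference turned positive for Ncoa1 (0.21), Rita1 (0.15) and Impg2 (0.087). Leaving out 1 array moved Impg2 there between -0.30 and 0.094, the latter without control ODN replicate 3. Tcp10a in C57BL/6 control mice at 3 h turned to 0.086 with array weights, to 0.072 with the run as a fixed block, and ran from -0.34 to 0.21 with 1 array left out, the latter without CpG replicate 4. Asic5 in untreated TNF-KO against control turned to -0.29 with the run as a fixed block. With 1 array left out, Ncoa1 in TNF-KO CpG spleen ran from -0.047 to 0.33 against untreated and from -0.070 to 0.31 against control, lowest without TNF-KO CpG replicate 4. The cause was not tested. A fixed block of run could not be fitted for 72 h and control ODN. As the mean of all probes of a gene, the BALB/c 3 h difference was 1.90 for Ncoa1, 1.98 for Oscp1, 1.72 for Rita1, 1.23 for Mthfsd, 1.3 for Luc7l and 0.99 for Tcp10a.

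Samples with the same replicate number deviated together only slightly (median r 0.0276 in BALB/c and 0.0849 in C57BL/6, lowest -0.445 and -0.192). For samples with different numbers the medians were lower, at -0.0291 and -0.0341. Because all these medians were near 0, the numbers were not used for pairing. With the replicate number as a block, 0 member probes were called at 1 h, 11 at 9 h, 11 at 24 h and 12 at 72 h.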
